A study of Mus musculus with 9 samples.

Results

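The genes described here encode the machinery that carries proteins into mitochondria. They were chosen by symbol: every gene whose symbol starts with Timm, Tomm or Mtx followed by a number, together with Chchd4, Gfer, Pam16, Dnajc19, Grpel1, Grpel2, Hspa9, Samm50, Pmpca and Pmpcb. That rule names 38 protein-coding genes, of which 36 were measured on probe sets of a single gene, out of 18820 genes measured so. Gfer and Timm8b lie only on probe sets shared with another gene and are not reported. A gene with several probe sets was represented by the one of highest mean signal, so the choice used mean levels and no difference between groups.

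The data are 9 Affymetrix array profiles, 3 per group, of hippocampus from 12 to 14 week old mice of the strain C57BL/6. The first group was given Maresin 1, a lipid mediator made by macrophages from docosahexaenoic acid, before orthopedic surgery, the second had the surgery alone, and the third was control mice. The surgery was a tibia fracture, and hippocampi were collected 72 h after it. No group was given Maresin 1 without surgery, and "with Maresin 1" below means Maresin 1 and surgery. The comparison of that group with control changes both, so their parts in it cannot be told apart. The labels used here name neither the dose of Maresin 1 nor any anaesthesia or vehicle given to control mice.

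Almost all mitochondrial proteins are made in the cytosol and imported. The outer membrane translocase (TOM) receives them. The sorting and assembly machinery (SAM) then folds barrel proteins into the outer membrane, small chaperones and a disulfide relay handle proteins of the space between the membranes, and the TIM22 and TIM23 translocases insert or pass proteins at the inner membrane. A motor built on the chaperone mortalin pulls precursors into the matrix, where a peptidase removes their targeting sequence. Neurons depend on this supply for synapses that lie far from the cell body.

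The mean level of 35 of the 36 genes lay above 5.86, the 95th percentile of 990 olfactory receptor genes, which serve as a guide to background. Levels here are log2(signal + 16) after quantile normalization. Timm8a2, an intermembrane chaperone gene, lay below the guide, with levels of 5.26, 5.30 and 4.89 with Maresin 1 and surgery, 5.03, 5.13 and 4.89 after surgery and 5.06, 5.12 and 4.96 in control, and no fold is given for it. Timm10b, the next dimmest by the rule for named genes, had 6.98, 6.94 and 6.99 with Maresin 1, 6.88, 7.02 and 6.87 after surgery and 7.14, 6.89 and 6.83 in control. The brightest probe sets were those of Hspa9 and Timm23. Signals of different probe sets do not rank transcripts, so the levels are read within a gene. The SD between the 3 arrays of a group had a median of 0.08 over genes and groups and reached 0.33 for Tomm5 after surgery.

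**Figure D1:**
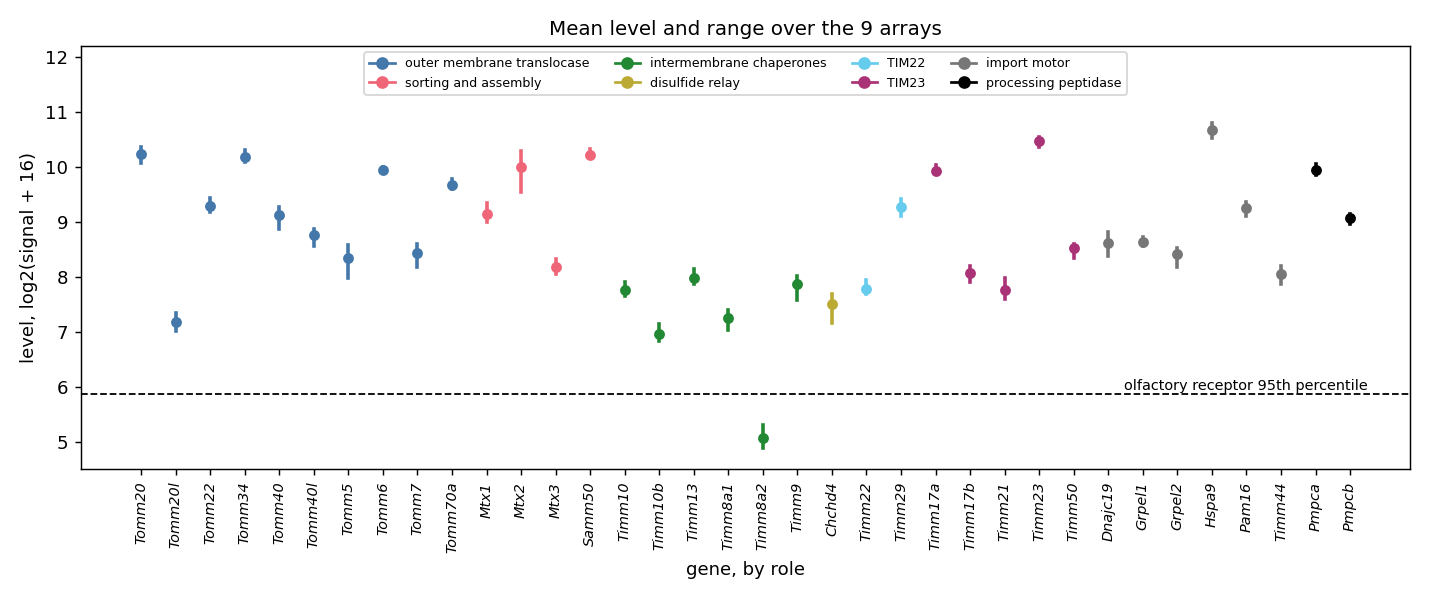
Level of each of the 36 import genes, with the mean of the 9 arrays as a point and the range over the 9 arrays as a bar, coloured by role; the y axis is log2(signal + 16) and the dashed line is the guide to background at 5.86. All but Timm8a2 lie above the line, and Mtx2 spans a wider range than its SAM partners.

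All 9 listed markers of hippocampal neurons lay above the guide, and their summed normalized signal was 25849 to 27014 with Maresin 1, 26099 to 26664 after surgery and 26419 to 26549 in control. The brightest markers weigh most in such a sum. Taken singly, 5 of the 9 were higher and 4 lower between Maresin 1 and control, by -0.26 to 0.21 in log2. Of the 10 choroid plexus markers measured, the sum ran from 956 to 1074 with Maresin 1, from 743 to 921 after surgery and from 832 to 16383 in control, where replicates 2 and 3 stood apart. The 5 endothelial markers measured summed to 1601 to 2194 with Maresin 1, 1794 to 1924 after surgery and 1359 to 1440 in control, without overlap between either operated group and control. Less RNA per cell and fewer cells of a type cannot be told apart in whole tissue.

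One gene of the 36 passed the test (limma adjusted p under 0.05) in any comparison of groups, and it did so where 0.085% of all genes were called, 0.0691% as higher. Mtx2, which encodes metaxin 2, an outer membrane partner of the SAM channel, rose with Maresin 1 and surgery relative to control. The other 35 genes, from the TOM receptors to the matrix peptidase, passed in none of the 3 comparisons. Their log2 differences were at most 0.27 in size, and the 95% intervals allowed differences from -0.38 to 0.56.

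SAM consists of the channel protein Samm50 and the metaxins, of which Mtx1 and Mtx2 form its cytosolic face and Mtx3 is a relative. Mtx2 lies on mouse chromosome 2 (GRCm38.p6, chr2:74825812-74876748). Its levels were 10.23, 10.18 and 10.29 with Maresin 1 and surgery, 10.07, 10.04 and 9.93 after surgery, and 9.82, 9.55 and 9.85 in control. No array of one group reached into the range of another, with Maresin 1 highest and control lowest, and control replicate 2 was the lowest of all. Group means were 10.23 ± 0.06 with Maresin 1, 10.01 ± 0.07 after surgery and 9.74 ± 0.16 in control (SD, n = 3 each).

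With Maresin 1 and surgery, Mtx2 was 1.41-fold above control (log2 0.50, SE 0.08, 95% interval 0.33 to 0.66, limma adjusted p = 0.0382 over 18820 genes). By p it ranked 8 of all genes in that comparison. With Maresin 1 it was 1.17-fold above surgery alone (log2 0.22, SE 0.08, limma adjusted p = 0.859), and after surgery it was 1.21-fold above control (log2 0.28, SE 0.08, limma adjusted p = 0.63), neither of which passed. With arrays scaled to one median these differences were 0.06 and 0.45, and without control replicate 2 the difference between surgery and control was 0.18. These comparisons share arrays, so the steps are not independent of each other. Of all genes 1.04% had 3 groups without overlap between any pair, and 0.446% had them in the order Maresin 1, surgery, control, as Mtx2 did. A test over the 3 groups at once gave limma adjusted p = 0.122 for Mtx2.

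Over 20 alternatives in processing and in the arrays used, the difference of Mtx2 between Maresin 1 and control ran from 0.40 to 0.55, and the gene was called in 7 of them. Against control replicate 1 alone, the control array with the lowest choroid plexus sum, it was 0.42 (limma adjusted p = 0.128), where the single control array is assumed to vary like the arrays of the other groups. Leaving out any 1 of the 3 Maresin 1 arrays, any 1 of the 3 surgery arrays or control replicate 2 also ended the call, as the plot of settings shows, and without control replicate 2 the difference was 0.40. The deposited signals before normalization overlapped, at 1167, 1068 and 1197 with Maresin 1, 758, 1236 and 1133 after surgery and 1208, 552 and 823 in control, and the array medians differed by up to 1.85-fold. All 5 endothelial markers differed in the same direction as Mtx2 between Maresin 1 and control, by 0.33 to 0.49, with 0 called and 5 at an unadjusted p under 0.05. All 10 choroid plexus markers differed the other way, by -4.39 to -1.16, with 0 called and 10 at an unadjusted p under 0.05. Alas2, the only marker measured of 5 listed for red cells, differed by 0.56 without overlap. All 6 astrocyte markers and all 4 oligodendrocyte markers measured were higher, with a median of 0.13 in each list. Of these 11 markers limma called 0, against 3 at an unadjusted p under 0.05. Of the 5 microglia markers measured, 4 were higher and 1 lower, by -0.05 to 0.24. There limma called 0, against 1 at an unadjusted p under 0.05. Of the 9 neuron markers 5 were higher and 4 lower, with 0 called and 3 lower at an unadjusted p under 0.05 (limma). In that comparison 11.5% of all genes had an unadjusted p under 0.05. The part of these markers in the result was not tested.

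**Figure D2:**
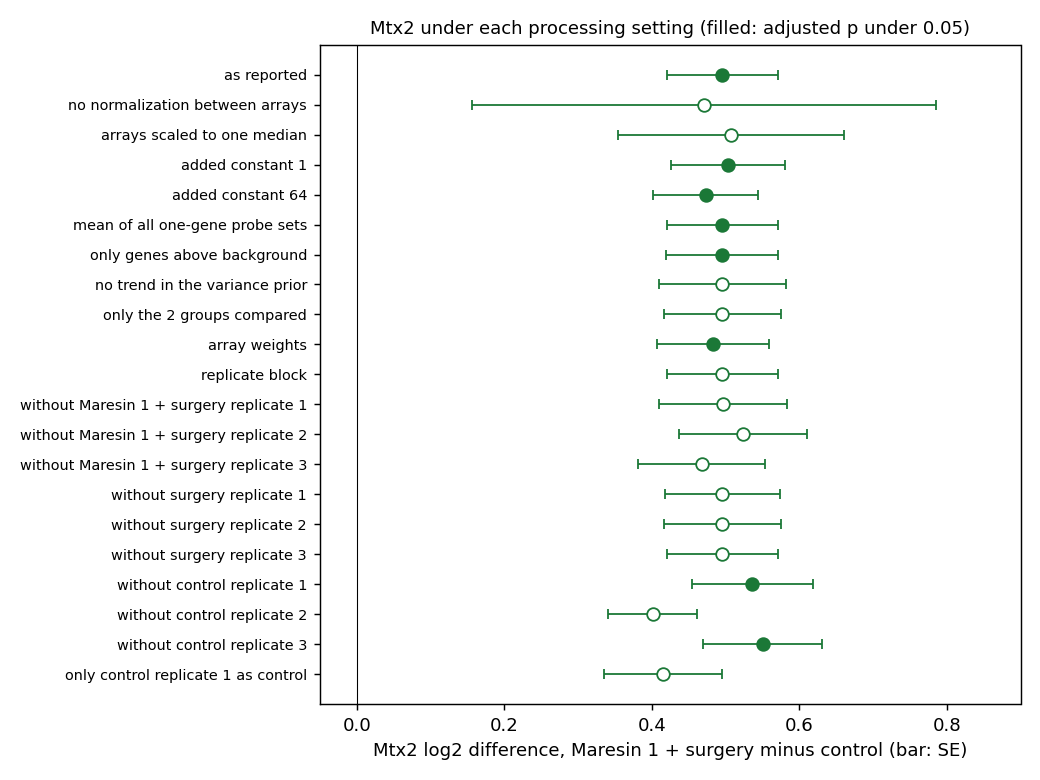
Log2 difference of Mtx2 between Maresin 1 with surgery and control under the reported processing and 20 alternatives, with the SE as a bar; filled points have an adjusted p under 0.05. Every point lies between 0.40 and 0.55, and 7 of the 20 alternatives are filled.

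The other SAM genes did not pass the test. Mtx1 had levels of 9.06, 9.05 and 9.11 with Maresin 1, 9.22, 9.04 and 9.003 after surgery and 9.19, 9.25 and 9.35 in control. The Maresin 1 arrays all lay below control, by 0.19 (SE 0.07, limma adjusted p = 0.292), while the surgery arrays overlapped control, with a difference of -0.18 (limma adjusted p = 0.754). That difference was -0.02 with arrays scaled to one median, and against control replicate 1 alone the differences were -0.12 with Maresin 1 and -0.11 after surgery. Samm50 differed by 0.07 and Mtx3 by 0.02 between Maresin 1 and control, with overlapping groups. Between Maresin 1 and surgery alone Mtx1, Mtx3 and Samm50 differed by -0.01, 0.01 and 0.03. The difference between Mtx2 and its partners was itself not tested.

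**Figure D3:**
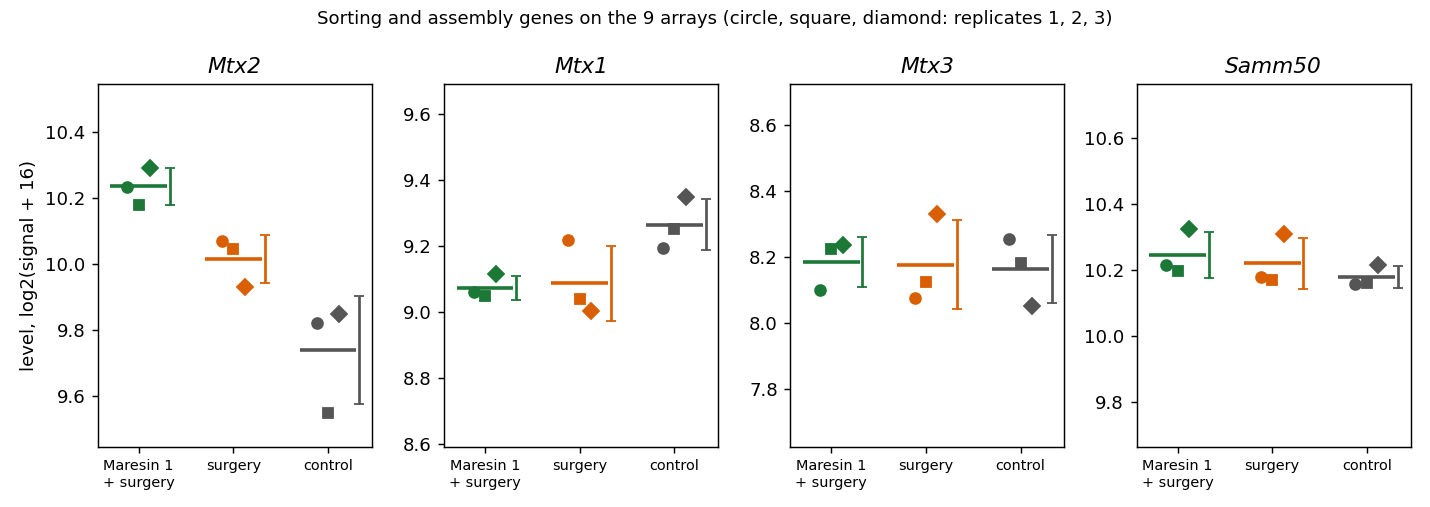
Levels of the 4 SAM genes on each array as log2(signal + 16), with each y axis covering the same span; lines are group means and bars the SD of 3 arrays. The groups are separate for Mtx2 (means 10.23, 10.01 and 9.74), while Mtx3 and Samm50 overlap in all groups.

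Promoter sequence is shown for the metaxins because Mtx2 alone of them passed the test. The region of 250 bases before the Mtx2 start, from RefSeq (GRCm38.p6, chr2:74825562-74825811, plus strand), holds one copy of CCGGAAG, the core bound by ETS family factors such as GABP, in capitals.
Mtx2 promoter: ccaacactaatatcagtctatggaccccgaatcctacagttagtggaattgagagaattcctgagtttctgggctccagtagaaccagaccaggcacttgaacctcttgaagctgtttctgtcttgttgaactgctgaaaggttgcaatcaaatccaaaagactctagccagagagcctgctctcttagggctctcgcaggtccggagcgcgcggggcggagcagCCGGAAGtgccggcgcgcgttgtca
A second copy begins 6 bases past the first transcribed base. All 3 metaxin promoters hold the motif close to the start. It is shown with 10 flanking bases on each side in lower case, read on the strand that carries it, at chr2:74825777-74825803 and chr2:74825808-74825834 (plus strand) for Mtx2, chr3:89213901-89213927 (plus strand) for Mtx1 and chr13:92844746-92844772 (minus strand) for Mtx3.
Mtx2 upstream copy: ggcggagcagCCGGAAGtgccggcgcg
Mtx2 downstream copy: gtcagcgacgCCGGAAGtgcttggtcg
Mtx1: gctctctgacCCGGAAGcaccttctcg
Mtx3: cctctgtcacCCGGAAGtactcgtacc
Mtx1 and Mtx3 carry it on the opposite strand to the gene, so these letters are shared by Mtx2, which passed the test, and by Mtx1 and Mtx3, which did not.

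Promoters of 250 bases before to 50 bases after the start were found for 31 of the 36 genes, and not for Grpel2, Hspa9, Timm21, Tomm40l and Tomm7. CCGGAAG on either strand was in 14 of these 31, or 45.2%, against 9.93% of all 27025 genes with a promoter in the table and 17.5% of the 10639 of them above the guide to background. It was also in 20 of 42 promoters of the wider pathway genes described below, or 47.6%. The 14 genes span the roles: Tomm22, Tomm34 and Tomm70a of TOM or its surroundings, the 3 metaxins, Timm10, Timm10b, Timm8a2, Timm23, Timm29, Grpel1, Pmpca and Pmpcb. In 11 of them a copy began within 50 bases of the start. The 24 matches include 2 pairs that overlap on opposite strands, in Timm10 and Tomm22. The palindromic motif of the factor NRF1 was in 0 of the 31, in 1.07% of all and in 2.14% of those above the guide. With shares that low, 0 of 31 does not set the import genes apart. Genes with CCGGAAG had a median log2 difference of 0.02 between Maresin 1 and control, and those without it 0.05. A match is a description of these letters and not of binding.

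TOM genes spread to both sides. Between Maresin 1 and control 4 of the 10 were higher and 6 lower, with 0 called, and between Maresin 1 and surgery 5 were higher and 5 lower. Tomm7, a small subunit that steadies the complex, was low after surgery. Its levels were 8.53, 8.35 and 8.59 with Maresin 1, 8.27, 8.44 and 8.17 after surgery and 8.50, 8.51 and 8.47 in control. The surgery arrays all lay under control, at -0.20 (SE 0.08, limma adjusted p = 0.772), and overlapped the Maresin 1 arrays, which were higher by 0.20 (limma adjusted p = 0.859). With arrays scaled to one median these differences were -0.07 and 0.09.

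Tomm40, the pore itself, had 9.10, 9.11 and 8.87 with Maresin 1, 9.14, 9.12 and 9.26 after surgery and 9.27, 9.07 and 9.12 in control. The Maresin 1 arrays lay just under the surgery arrays, by 0.15 (SE 0.08, limma adjusted p = 0.859). The difference was -0.07 without Maresin 1 replicate 3 and -0.28 with arrays scaled to one median. Tomm40l, a second form of the pore, differed by -0.13 in the same comparison, with overlap.

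Tomm20 and Tomm22, receptors for targeting sequences, differed from control by 0.13 and 0.06 with Maresin 1, and Tomm70a, the receptor for carrier proteins, by 0.01. Tomm5, another small subunit, was above control by 0.27 with Maresin 1 without overlap (SE 0.14, limma adjusted p = 0.498). Its surgery arrays ranged from 7.99 to 8.57, wider than that difference. Tomm6 differed by -0.00 in that comparison. Tomm34, a cytosolic co-chaperone of precursors, and Tomm20l, a relative of Tomm20, differed by -0.12 and -0.17. The Tomm20l arrays with Maresin 1 lay under all surgery arrays, by 0.16.

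The intermembrane chaperones ferry hydrophobic precursors between TOM and the inner membrane or SAM. Timm9 and Timm10, which form one ring, differed from control by 0.17 and 0.01 with Maresin 1. Timm13 differed by 0.12, Timm8a1, whose human counterpart is mutated in a deafness and dystonia syndrome, by -0.03, and Timm10b, which joins the TIM22 complex, by 0.02. All 5 of these overlapped control. Chchd4, the oxidoreductase that drives the disulfide relay, was higher after surgery than in control by 0.24 (SE 0.10, limma adjusted p = 0.781) with overlap. Its levels were 7.53, 7.55 and 7.46 with Maresin 1, 7.63, 7.68 and 7.53 after surgery and 7.42, 7.16 and 7.54 in control, where replicate 2 was the low array.

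TIM22 inserts carrier proteins into the inner membrane. Timm29, a subunit of it in human cells, had levels of 9.29, 9.32 and 9.30 with Maresin 1, 9.34, 9.28 and 9.41 after surgery and 9.19, 9.10 and 9.20 in control. All 6 operated arrays lay above the 3 control arrays. Differences from control were 0.14 with Maresin 1 (SE 0.06, limma adjusted p = 0.373) and 0.18 after surgery (SE 0.06, limma adjusted p = 0.671), and the second was 0.35 with arrays scaled to one median. Timm22, the channel, differed by -0.04 and 0.01 in these comparisons.

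TIM23 genes stayed within 0.07 of control with Maresin 1. Timm23, the channel, had 10.49, 10.54 and 10.47 with Maresin 1, 10.46, 10.44 and 10.36 after surgery and 10.45, 10.45 and 10.50 in control. Its Maresin 1 arrays lay just above all surgery arrays, by 0.08 (SE 0.05, limma adjusted p = 0.859). Timm17a and Timm17b, the alternative partners of the channel, differed from control by 0.06 and -0.04, the receptor Timm50 by -0.07 and Timm21, which links the translocase to TOM and the respiratory chain, by 0.07.

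Among the motor genes, Grpel2, a nucleotide exchange factor of mortalin, had levels of 8.47, 8.53 and 8.52 with Maresin 1, 8.53, 8.40 and 8.37 after surgery and 8.40, 8.31 and 8.17 in control. The Maresin 1 arrays lay above all control arrays, by 0.21 (SE 0.07, limma adjusted p = 0.287), and the surgery arrays overlapped both. Against control replicate 1 alone the difference was 0.11. Grpel1, the other exchange factor, differed by -0.08 with overlap. Hspa9, which encodes mortalin, had 10.53, 10.67 and 10.70 with Maresin 1, 10.69, 10.61 and 10.62 after surgery and 10.72, 10.64 and 10.80 in control, with overlap between all groups and a difference of -0.09 between Maresin 1 and control. Pam16, a co-chaperone at the channel exit, had 9.37, 9.26 and 9.30 with Maresin 1, 9.22, 9.20 and 9.11 after surgery and 9.16, 9.27 and 9.35 in control. With Maresin 1 it lay above all surgery arrays by 0.13 (SE 0.06, limma adjusted p = 0.859), and when arrays were scaled to one median the sign turned, to -0.0045. Dnajc19, the partner of Pam16, differed from control by 0.15 and Timm44, which tethers mortalin to the channel, by -0.07. Pmpca and Pmpcb, the subunits of the processing peptidase, differed from control by -0.02 and -0.03.

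**Figure D4:**
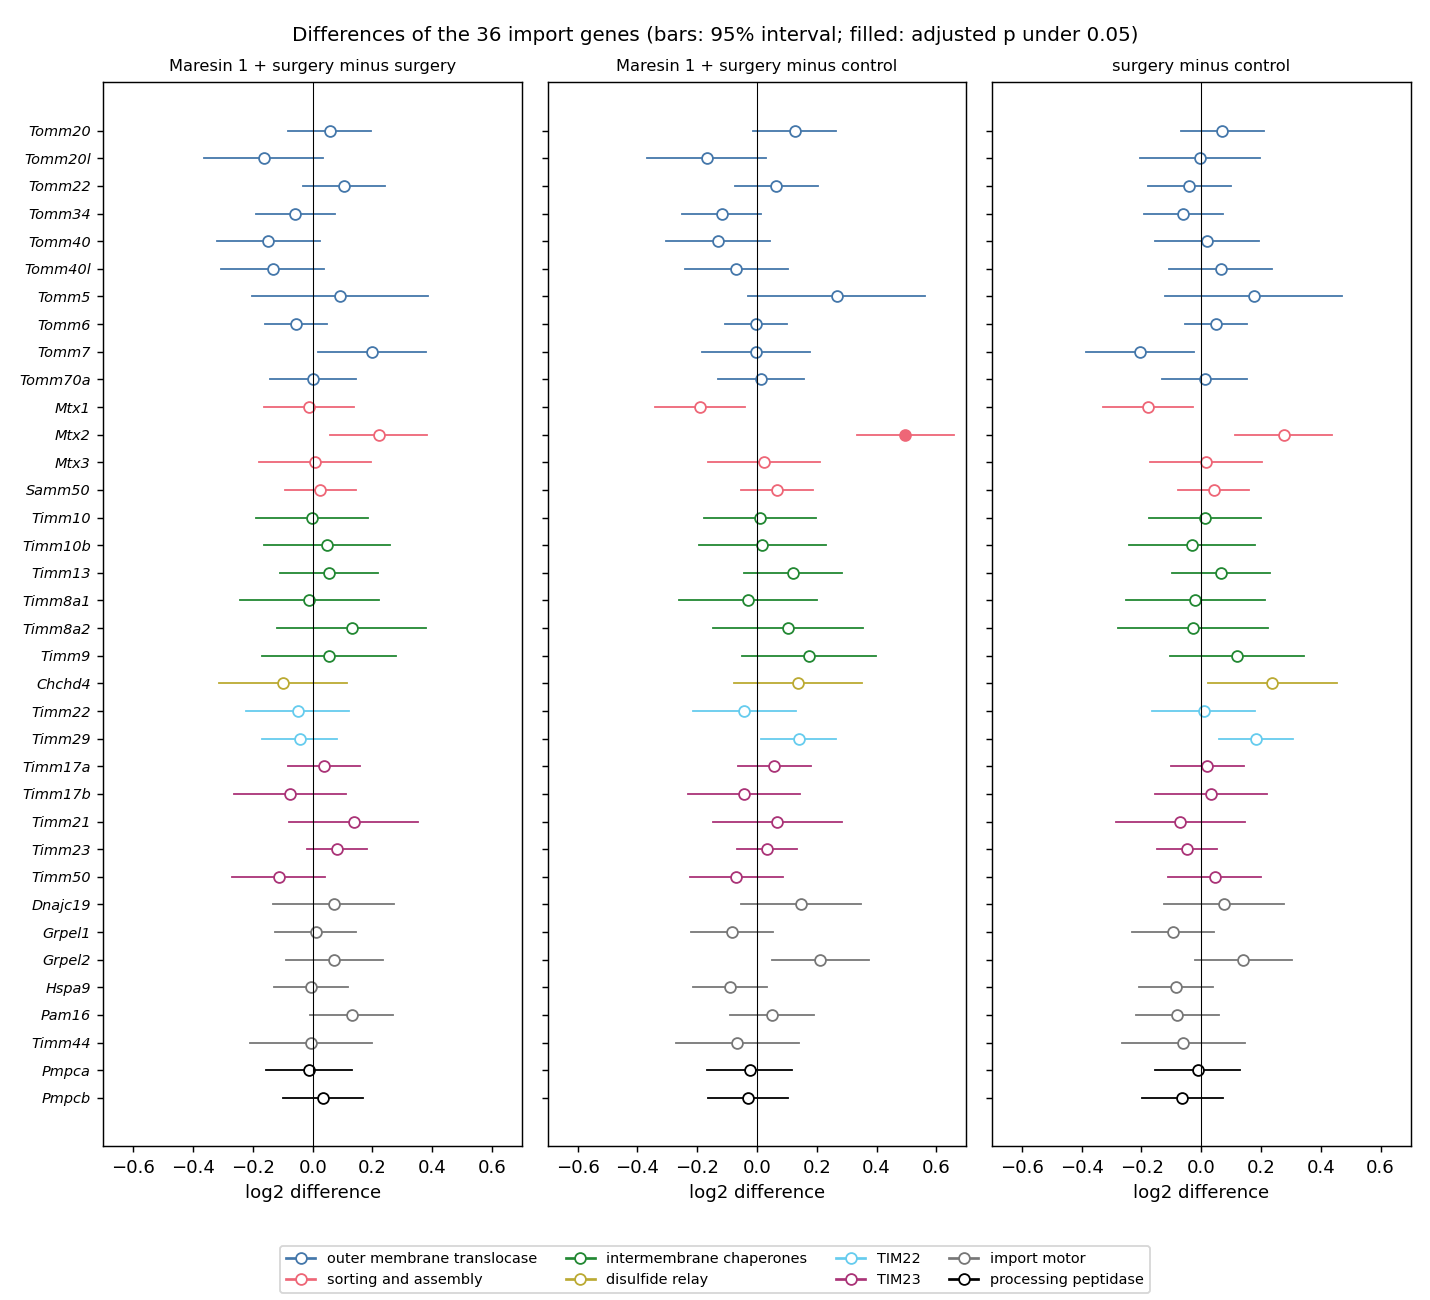
Log2 differences of the 36 genes in the 3 comparisons, coloured by role, with 95% intervals as bars; filled points have an adjusted p under 0.05. Mtx2 in the comparison of Maresin 1 with control (0.50) is the one filled point, and most intervals cross 0.

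Counted over all 36 genes, 20 were higher and 16 lower in each of the 3 comparisons, while 41.7%, 49% and 58.4% of all genes were higher between Maresin 1 and surgery, between Maresin 1 and control and between surgery and control. The median log2 difference was 0.01 between Maresin 1 and surgery, 0.02 between Maresin 1 and control and 0.01 between surgery and control, against -0.02, -0.00 and 0.02 over all genes. The groups did not overlap for 5 of the 36, or 13.9%, between Maresin 1 and surgery, where 13% of all genes did not. They did not overlap for 5 between Maresin 1 and control, where 14.3% of all genes did not, and for 3 between surgery and control, or 8.33%, where 11.5% did not. These shares are near those of all genes.

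limma called 0 genes between Maresin 1 and surgery and 0 between surgery and control, which is 0% in both, against 1065 and 1168 at an unadjusted p under 0.05, 5.66% and 6.21% of all. Of the 36, 2 and 5 were at an unadjusted p under 0.05, and 4 between Maresin 1 and control, where 11.5% of all genes were. limma also called 0 genes in the test over 3 groups, against 1665, or 8.85%, at an unadjusted p under 0.05, of which 5 were import genes. The mean deviation of the 36 genes from their 9-array means ran from 0.00 to 0.03 over the Maresin 1 arrays, from -0.04 to 0.02 over the surgery arrays and from -0.06 to 0.02 over the control arrays. Control replicate 2 was the lowest, as it was for Mtx2, Timm9 and Chchd4.

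**Figure D5:**
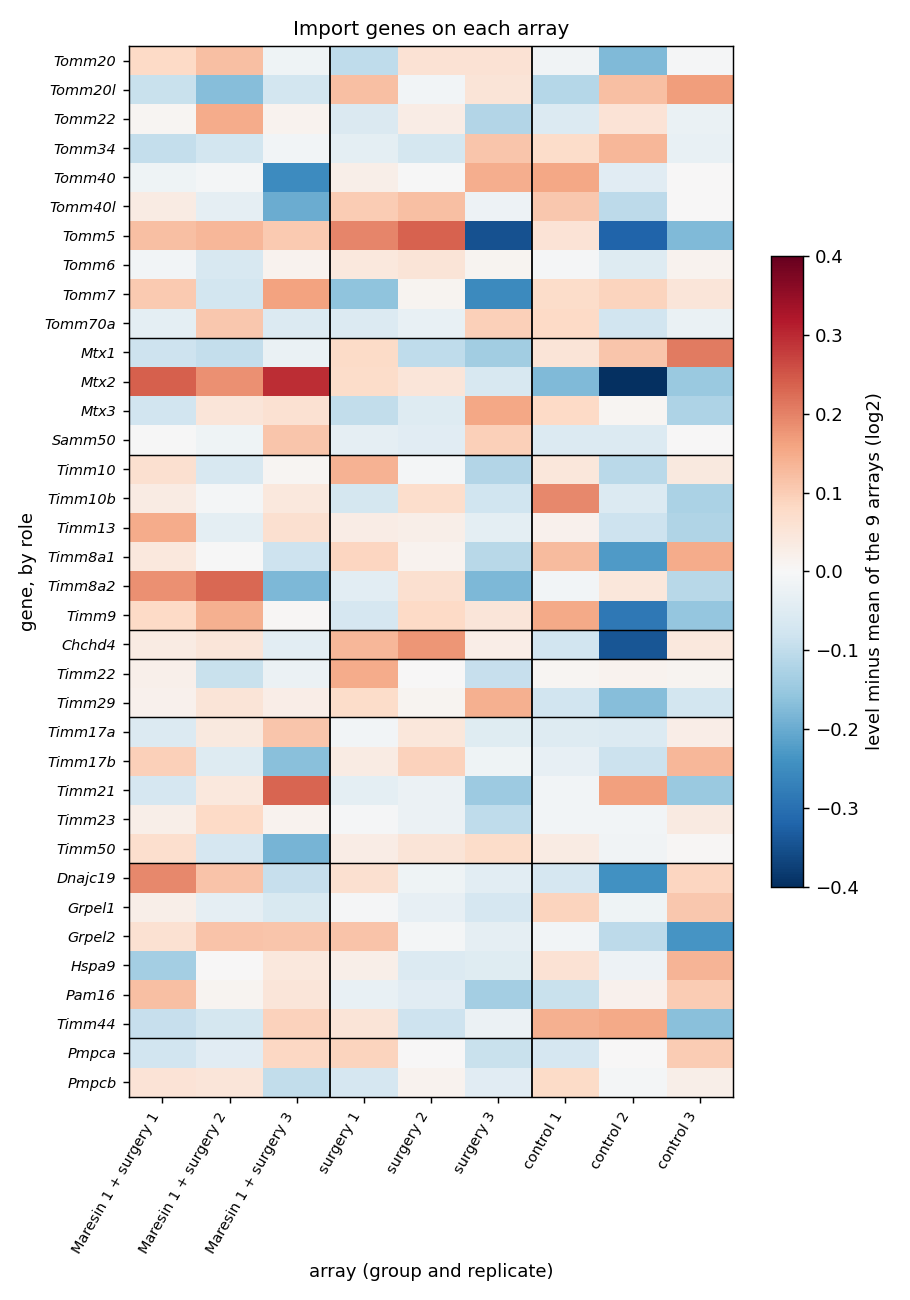
Level of each import gene on each array minus its mean over the 9 arrays (log2), with arrays in columns by group and genes in rows by role; red is above the mean and blue below, and the scale ends at 0.4 either way. Mtx2, whose difference of 0.50 is the largest of the 36, is red in all Maresin 1 arrays and blue in all control arrays, as are Grpel2 and Timm29 with smaller differences (0.21 and 0.14).

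Of the 36 genes, 10 had over 1 probe set of their own. Between Maresin 1 and control the others gave close differences for Tomm20 (0.12, against 0.13 for the one used) and for Chchd4 (0.19, against 0.14). For Timm23 they gave 0.01 and 0.00, against 0.03. A further Timm23 probe set held the same values as the one used, so it is no separate measurement. The other probe sets of Tomm22 between Maresin 1 and surgery (0.02, against 0.11) and Timm17a (-0.08, against 0.04) were further apart. For Timm21 between surgery and control they differed in sign (0.08, against -0.07), and for Tomm40 between Maresin 1 and surgery they were -0.20 and -0.05, against -0.15. Over the 9 arrays these correlated with the one used at -0.06 for Tomm22, -0.05 for Timm17a, 0.08 for Timm21 and 0.38 and -0.15 for Tomm40. Correlations ran from 0.68 to 0.99 for Chchd4, Dnajc19, Pam16, Timm8a1 and Tomm20. Which probe set follows the transcript was not tested. Mtx2, Mtx1, Mtx3, Timm29 and Grpel2 each had 1 probe set.

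Genes that work beside the import machinery, or that set or mark mitochondrial content, gave no call. From lists of 48 such genes, 45 were measured, and limma called 0 of them in all 3 comparisons. At an unadjusted p under 0.05, 5 were higher and 2 lower between Maresin 1 and control. There were 1 higher and 1 lower between Maresin 1 and surgery, and 1 higher between surgery and control. The 45 include 10 genes of mitochondrial content, described under Other observations. Of these counts, those 10 gave 2 higher and 2 lower, then 1 higher and 1 lower, then 1 higher. The shares over all genes were 11.5%, 5.66% and 6.21%, beside which stand 7, 2 and 1 of the 45. The 3 further peptidases of import that were measured were all higher with Maresin 1 than control without overlap, with Immp1l of the inner membrane peptidase at 0.20, the aminopeptidase gene Xpnpep3 at 0.20 and the intermediate peptidase gene Mipep at 0.08 (limma adjusted p 0.296, 0.314 and 0.687). Of all genes 7.61% were higher without overlap in that comparison. After surgery alone, Immp1l, Xpnpep3 and Mipep differed from control by 0.06, 0.15 and 0.02. Only Xpnpep3 was without overlap there, where 7.71% of all genes were higher without overlap. Of 11 genes of matrix folding and proteolysis, Yme1l1, an inner membrane protease that also degrades import subunits, differed by 0.18 between Maresin 1 and control (limma adjusted p = 0.249). In the same comparison the chaperonin genes Hspd1 and Hspe1 differed by -0.02 and -0.00. The 7 genes of the cristae organising complex ranged from -0.06 to 0.12, with its core gene Immt at 0.12. The 5 genes of inner membrane insertion ranged from -0.05 to 0.07, the 5 outer membrane insertases and channels from -0.06 to 0.09, and the 4 partners of TIM23 and the motor from -0.06 to 0.08.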

How the data were processed

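The deposited table holds linear intensity per probe set, which the submitters' processing notes credit to Affymetrix Expression Console without naming a version or an algorithm. Of 35556 probe sets, 21218 name 1 gene, 1881 several and 12457 none; identifiers of 21185 matched the gene table. Median signals ran from 54.1 to 100 between arrays, with 92 to 244 zeros per array, so signals were quantile normalized, 16 was added and log2 taken. The probe set with the highest mean stood for each of 1386 genes with several.

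Groups came from the titles, which call arrays biological replicates. The test was limma 3.58.1 (R 4.3.3), one model over 9 arrays without covariates, a variance prior that follows the level, and Benjamini-Hochberg adjustment over 18820 genes, called under 0.05. No dim genes were filtered. The fit was tested on simulated data. Arrays have no read depth; their number limits the precision. Values on every array were given for called genes, the 4 smallest p per comparison and the 2 brightest and 2 dimmest; other genes given so were chosen after their values were seen. Genes, lists and motifs were chosen with earlier results of these data known. Promoters are RefSeq's (GRCm38.p6). Same-numbered arrays did not deviate together (correlations -0.24 to 0.05), so replicate numbers were not taken as pairs.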

Additional observations from a re-analysis of the deposited data

How the results depend on the processing

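With 3 arrays per group, calls depended on processing. Between Maresin 1 with surgery and control, 16 genes were called, 13 higher and 3 lower. Without normalization between arrays there were 43, of which 2 were higher. With arrays scaled to one median there were 38, of which 5 were higher. With control replicate 1 alone as control there were 4. There were 0 without a trend in the variance prior, with the 2 groups alone and with the replicate number as a block, and 0 to 245 when an array was left out, with 245 without control replicate 1. Import genes called in that comparison were 0 in each of the 6 settings just named and 0 to 1 with an array left out. The fits with 0 calls had 1505 to 2370 genes at an unadjusted p under 0.05. Between surgery and control, 42 genes were called without normalization and 37 with arrays scaled to one median, and 0 to 169 with an array left out, with 169 without control replicate 1. Over the 3 groups these counts were 46 and 44, with 3 for control replicate 1 alone and 0 to 183 with an array left out, among them 0 to 1 import genes. The median difference of the 36 genes was -0.10 between Maresin 1 and surgery and 0.15 between surgery and control with arrays scaled to one median, where the median of all genes was -0.09 and 0.10, so that 5 and 33 of the 36 were higher. It was -0.029 between surgery and control with control replicate 1 alone. Pam16 turned to -0.0045 between Maresin 1 and surgery with arrays scaled to one median. The replicate block, for which numbers are shared by labels alone, left Mtx2 at 0.50 with limma adjusted p = 0.144. The cause of these shifts was not tested.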

Other observations

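The 10 measured genes that set or mark mitochondrial content are part of the 45 wider pathway genes above. limma called 0 of the 10 in any of the 3 comparisons. At an unadjusted p under 0.05, 2 were higher and 2 lower between Maresin 1 and control, where 11.5% of all genes were. Tfam, which packages and transcribes mitochondrial DNA, was higher with Maresin 1 and surgery than in control by 0.30 on the log2 scale (limma adjusted p = 0.21), and Ppargc1a, a coactivator of mitochondrial biogenesis, was lower by 0.16 (limma adjusted p = 0.21). Nrf1, a regulator of nuclear genes for mitochondria, differed by -0.17, and Gabpa, Gabpb1 and Gabpb2, the subunits of GABP, by 0.09, 0.16 and 0.14. Cs, the citrate synthase gene often used as a measure of mitochondrial mass, differed by 0.07. Polg, Polrmt and Twnk, the remaining genes of the list, were lower, by -0.13, -0.07 and -0.04. After surgery alone, Tfam differed from control by 0.21 (limma adjusted p = 0.781), Ppargc1a by -0.04, Nrf1 by -0.11 and Cs by 0.09. Gabpa, Gabpb1 and Gabpb2 differed by -0.02, 0.10 and -0.09 in that comparison, and Polg, Polrmt and Twnk by -0.02, -0.01 and 0.09. The 3 groups of Tfam did not overlap and stood in the order Maresin 1, surgery, control, as for 0.446% of all genes.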
